A study of Mus musculus with 16 samples.

Results

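The respiratory chain genes of neonatal spleen monocytes were compared between cells sorted as Nrp1 high and cells sorted as Nrp1 low; Nrp1, or neuropilin-1, is a receptor on the cell surface that binds semaphorins and VEGF. Members were chosen by symbol: every gene encoded on the mitochondrial genome, and the nuclear genes named as subunits or assembly factors of complexes I to V, without rows marked as pseudogenes. This gave 130 of the 25562 genes in the count table, 37 mitochondrially encoded and 93 nuclear. The mitochondrial genes comprised 13 mRNAs, 2 rRNAs and 22 tRNAs. Of the nuclear genes, 82 were structural subunits (36 of complex I, 4 of complex II, 9 of complex III, 16 of complex IV and 17 of complex V), 9 were assembly factors and 2 were gene copies.

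RNA was measured in 3 Nrp1 high and 3 Nrp1 low libraries of 80000 sorted cells each, from spleens of wild-type C57BL/6J mice aged 7 days. No treatment or engineered allele is given for either group. Chromatin accessibility was measured by ATAC-seq, in which a transposase cuts open DNA, in 5 Nrp1 high and 5 Nrp1 low libraries of 50000 cells. The labels class all cells as myeloid-derived suppressor cells and do not say that replicates came from separate animals, so each p-value reflects only how these libraries scatter, and that scatter may be technical.

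The respiratory chain passes electrons through complexes I to IV in the inner mitochondrial membrane and pumps protons, and complex V (ATP synthase) uses the resulting gradient. Complex II is wholly nuclear encoded, whereas complexes I, III, IV and V join subunits from both genomes. Mitochondrial genes are transcribed as long polycistronic precursors by a dedicated polymerase, while nuclear subunit genes are transcribed singly and their proteins imported.

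Library totals were 28440098 to 31428419 counts in Nrp1 high and 23395363 to 35127433 in Nrp1 low. Of all 15541 genes tested, 106 were called between the groups at an adjusted p under 0.05 (edgeR, Benjamini-Hochberg), 1 higher and 105 lower in Nrp1 high. The count was 28, 50 and 0 without Nrp1 high replicates 1, 2 and 3 in turn, and 29 without Nrp1 low replicate 3. The sorted cells carried monocyte markers in both groups, whose summed level was 26850 to 35915 CPM (a gene's count scaled to a common library size) in Nrp1 high and 31820 to 47786 CPM in Nrp1 low. Most of that sum was Lyz2, a lysozyme gene; the other 11 monocyte markers summed to 5342 to 5786 CPM in Nrp1 high and 4475 to 5180 CPM in Nrp1 low. Neutrophil granule markers, 18 genes, summed to 9573 to 12231 CPM in Nrp1 high and 53075 to 85696 CPM in Nrp1 low, and 12 of the 18 were called lower. Megakaryocyte and platelet markers, 7 genes, summed to 11.5 to 17.4 CPM in Nrp1 high and 55.7 to 72.7 CPM in Nrp1 low, with 3 called lower. The 7 erythroid markers all lay below 0 on the log2 scale with a median of -0.39 and none called, and summed to 3411 to 4113 CPM in Nrp1 high and 3416 to 6382 CPM in Nrp1 low. In bulk RNA, fewer cells of a type and less RNA per cell cannot be told apart. The part of these cell types in the differences described here was not tested.

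In every complex with subunits from both genomes, the mitochondrially encoded mRNAs averaged higher relative to their nuclear partners in Nrp1 high, but the groups overlapped in each. Over all complexes, the log2 ratio of summed mitochondrially encoded to summed nuclear subunit counts was 0.19, -1.04 and -0.07 in the Nrp1 high libraries (replicates 1 to 3), against -1.52, -0.44 and -1.28 in the Nrp1 low libraries. The mean was -0.31 ± 0.65 in Nrp1 high and -1.08 ± 0.57 in Nrp1 low (SD, n = 3 each), a difference of 0.77 on the log2 scale or 1.71-fold. Replicate 2 of Nrp1 high lay among the Nrp1 low libraries, and replicate 2 of Nrp1 low lay among the Nrp1 high ones. A ratio within a library needs no scaling between libraries. It was described without a test, since it is a score over chosen members.

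The gap was widest in complex I, the NADH dehydrogenase, where 7 mitochondrial and 36 nuclear subunits were summed. Its log2 ratio was 0.19, -1.47 and -0.17 in Nrp1 high, against -2.42, -0.81 and -1.93 in Nrp1 low, a difference of means of 1.24 (2.36-fold). In complex IV, the cytochrome c oxidase, the ratios were 1.37, 0.37 and 1.28 in Nrp1 high and -0.14, 1.03 and -0.02 in Nrp1 low, a difference of 0.71. The mitochondrial counts thus exceeded the nuclear counts of complex IV in all 3 Nrp1 high libraries and in 1 Nrp1 low library. The sums were not scaled for gene length and leave out nuclear copies of mitochondrial DNA. Which sum is larger in a library is therefore uncertain. Complex III, with the single mitochondrial subunit cytochrome b, differed by 0.50, and complex V by 0.35. The SD was 0.88 in Nrp1 high and 0.82 in Nrp1 low for complex I, and 0.55 in Nrp1 high and 0.64 in Nrp1 low for complex IV. It was 0.64 in Nrp1 high and 0.40 in Nrp1 low for complex III, and 0.33 in Nrp1 high and 0.29 in Nrp1 low for complex V. None of these differences stood clear of the spread. Single libraries moved these differences: complex III was 0.23 without Nrp1 high replicate 1 and 0.86 without Nrp1 high replicate 2. Complex V was 0.21, 0.53 and 0.23 without Nrp1 high replicate 1, Nrp1 high replicate 2 and Nrp1 low replicate 3 in turn, and complex IV was 1.08 without Nrp1 low replicate 2.

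**Figure D1:**
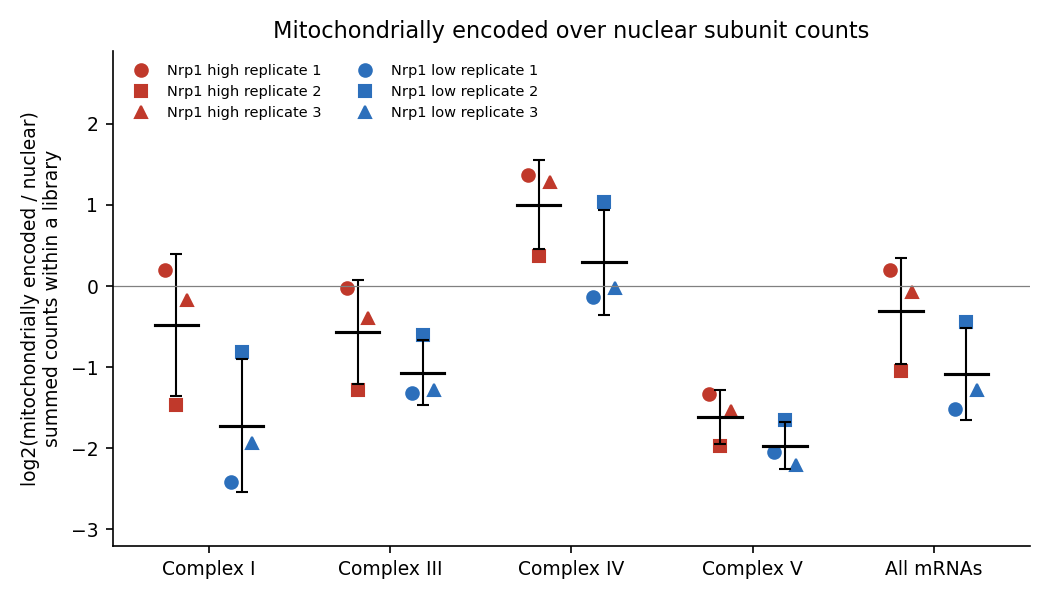
Log2 ratio of mitochondrially encoded to nuclear subunit counts (y axis) in each library by complex (x axis), Nrp1 high in red left of Nrp1 low in blue; marker shapes give the replicate, bars the mean and SD of 3 libraries. Replicate 2 of Nrp1 high is the lowest red point and replicate 2 of Nrp1 low the highest blue point in each complex.

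The group means differed on both sides of the ratio. Mitochondrial mRNAs summed to 19578, 9270 and 15264 CPM in Nrp1 high, against 7858, 11678 and 10131 CPM in Nrp1 low. Nuclear structural subunits summed to 17143, 19101 and 16041 CPM in Nrp1 high, against 22526, 15833 and 24625 CPM in Nrp1 low. Replicate 2 had the lowest mitochondrial and the highest nuclear sum of the Nrp1 high libraries, and the highest mitochondrial and the lowest nuclear sum of the Nrp1 low libraries. Gene by gene, Nrp1 high replicate 2 was the lowest of its group for 11 of 13 mitochondrial mRNAs, and Nrp1 low replicate 1 the lowest of its group for 10 of 13. Nrp1 low replicate 2 was the lowest of its group for 87 of 90 tested nuclear members.

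No member was called. Of the 130 members, 121 passed the filter on low counts, and 0 of these reached an adjusted p under 0.05 (edgeR; 0.682% of all genes tested were called); DESeq2 and limma-voom also called 0 members, beside 2.59% and 0.772% of all genes. The untested members were 6 tRNAs, the isoforms Cox4i2 and Ndufa4l2, and the copy Cox6c2. At an unadjusted p under 0.05, 8 mitochondrial genes were higher, of 31 tested, beside 4.5% of all genes in that direction. For the nuclear members 1 of 90 was lower and 0 were higher, beside 6.72% of all genes lower. These unadjusted counts depended on single libraries: the nuclear count was 37 without Nrp1 low replicate 2, 6 without Nrp1 high replicate 2, and 0 without Nrp1 high replicate 3 or Nrp1 low replicate 3. For the mitochondrial mRNAs the count was 4 with all libraries, 9 without Nrp1 high replicate 2, and 0 without Nrp1 high replicate 1, Nrp1 high replicate 3, Nrp1 low replicate 1 or Nrp1 low replicate 3.

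The signs of the fitted differences were split between the genomes. Of the 13 mitochondrial mRNAs, 12 had a fitted log2 difference (Nrp1 high minus Nrp1 low) above 0, with a median of 0.63, and of the 90 nuclear members 88 lay below 0, with a median of -0.29. The median of all genes tested was 0.01, with 7680 of 15541 below 0. The medians moved with single libraries. The mitochondrial median was 0.36 without Nrp1 high replicate 1 and 0.42 without Nrp1 low replicate 1, and the nuclear median was -0.48 without Nrp1 low replicate 2 and -0.14 without Nrp1 low replicate 3. Without Nrp1 low replicate 3, 69 of 90 nuclear members lay below 0. Nrp1 low replicate 3 was the highest of the 6 libraries for 61 nuclear members and Nrp1 low replicate 1 for 26. The nuclear signs are thus not separate observations. Scaling by library totals shifted the median of all genes to 0.20, and 61 of 90 nuclear members were then below 0; relative to that shift the nuclear median was -0.29.

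**Figure D2:**
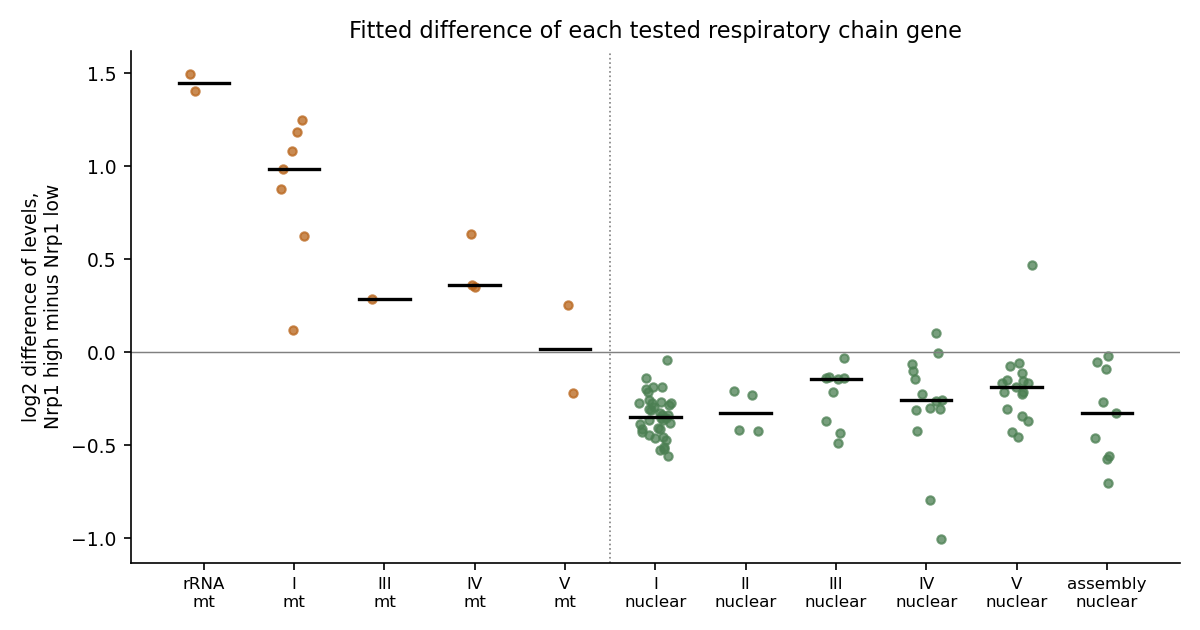
Fitted log2 difference, Nrp1 high minus Nrp1 low (y axis), of each tested member by complex and genome (x axis); each point is a gene and each bar a median, with mitochondrially encoded genes in orange left of the dotted line and nuclear genes in green. Mitochondrial complex I has a median of 0.98, whereas all 36 nuclear complex I subunits lie below 0.

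Of the mitochondrially encoded genes, both rRNAs had log2 differences above 1, and the 7 complex I mRNAs had a median of 0.98 and a range of 0.12 to 1.25. The small-subunit rRNA mt-Rnr1 (mitochondrial genome, bases 70 to 1024) had 1480, 530 and 1147 CPM in Nrp1 high, against 139, 612 and 368 CPM in Nrp1 low. Its log2 difference was 1.497 ± 0.55 (SE; adjusted p = 0.412, edgeR). The large-subunit rRNA mt-Rnr2 had 6470, 2447 and 5144 CPM in Nrp1 high and 676, 2866 and 1776 CPM in Nrp1 low. Nrp1 high replicate 2 fell within the Nrp1 low range for both rRNAs, and Nrp1 low replicate 1 was the lowest library. The row CT010467.1, set among the signs of rRNA-derived reads, ran the same way, with 14880, 8012 and 15049 CPM in Nrp1 high, against 1414, 8841 and 6239 CPM in Nrp1 low. The other 4 transcripts of that list, nuclear-retained RNAs such as Malat1, summed to 2563, 3441 and 2684 CPM in Nrp1 high, against 2632, 3188 and 3394 CPM in Nrp1 low. That sum hides a split, since of all 5 transcripts of the list 3 lay above 0 and 2 below. Over the alternative fits Neat1 differed by 0.80 to 1.42 and Kcnq1ot1 by 0.65 to 1.77 on the log2 scale. The part of these transcripts in the rRNA values was not tested.

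The complex I mRNA mt-Nd2, a membrane-arm subunit (bases 3914 to 4951), had 606, 169 and 370 CPM in Nrp1 high, against 110, 216 and 178 CPM in Nrp1 low. For mt-Nd4, another proton-pumping subunit, the levels were 1981, 606 and 1292 CPM in Nrp1 high and 349, 844 and 636 CPM in Nrp1 low. The distal pump subunit mt-Nd5 had 1142, 546 and 1039 CPM in Nrp1 high, against 297, 670 and 413 CPM in Nrp1 low. Their log2 differences were 1.19, 1.09 and 0.98, with adjusted p-values of 0.421, 0.441 and 0.424 (edgeR). In each of these genes Nrp1 high replicate 2 lay within the Nrp1 low range, so that the groups overlapped. Of the complex I mRNAs, mt-Nd6 differed by 1.25 and mt-Nd4l by 0.12. The gene mt-Nd6 lies on the other strand and mt-Nd4l overlaps mt-Nd4, and no source used here states the strand of the counting, so both values are uncertain.

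The other mitochondrial mRNAs belong to complexes III, IV and V. The catalytic core subunit of complex IV, mt-Co1, had 7014, 3212 and 5706 CPM in Nrp1 high, against 2317, 4411 and 3536 CPM in Nrp1 low, a log2 difference of 0.63 ± 0.35. Cytochrome b, mt-Cytb, had 1939, 1070 and 1462 CPM in Nrp1 high and 1223, 1272 and 1166 CPM in Nrp1 low, a log2 difference of 0.29. Its Nrp1 low libraries were close together, with an SD of 53.2 CPM. The one mRNA with a value below 0 was mt-Atp8, a complex V subunit that overlaps mt-Atp6, at -0.22.

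Per kilobase of gene, mt-Co1 averaged 3437 CPM per kb in Nrp1 high and 2214 CPM per kb in Nrp1 low, and mt-Atp6 2370 CPM per kb in Nrp1 high and 1985 CPM per kb in Nrp1 low. In Nrp1 low replicate 1 mt-Atp6 exceeded mt-Co1, with 1928 against 1499 CPM per kb. At the other end, mt-Nd3 had 101 CPM per kb in Nrp1 high and 54.9 CPM per kb in Nrp1 low. Reads of some mitochondrial genes are shared with nuclear copies of mitochondrial DNA. In Nrp1 low replicate 1 the copy Gm28437 had 759 CPM beside 776 CPM for mt-Co3. The copy Gm28661 had 524 CPM there, beside 540 CPM for mt-Co2. The row Gm10925 carried 0.991 to 1.03 times the count of mt-Atp6 in every library, so the order of mt-Co1 and mt-Atp6 is uncertain, and 8 such rows summed to 7325, 3546 and 5658 CPM in Nrp1 high, against 3293, 4357 and 4297 CPM in Nrp1 low.

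**Figure D3:**
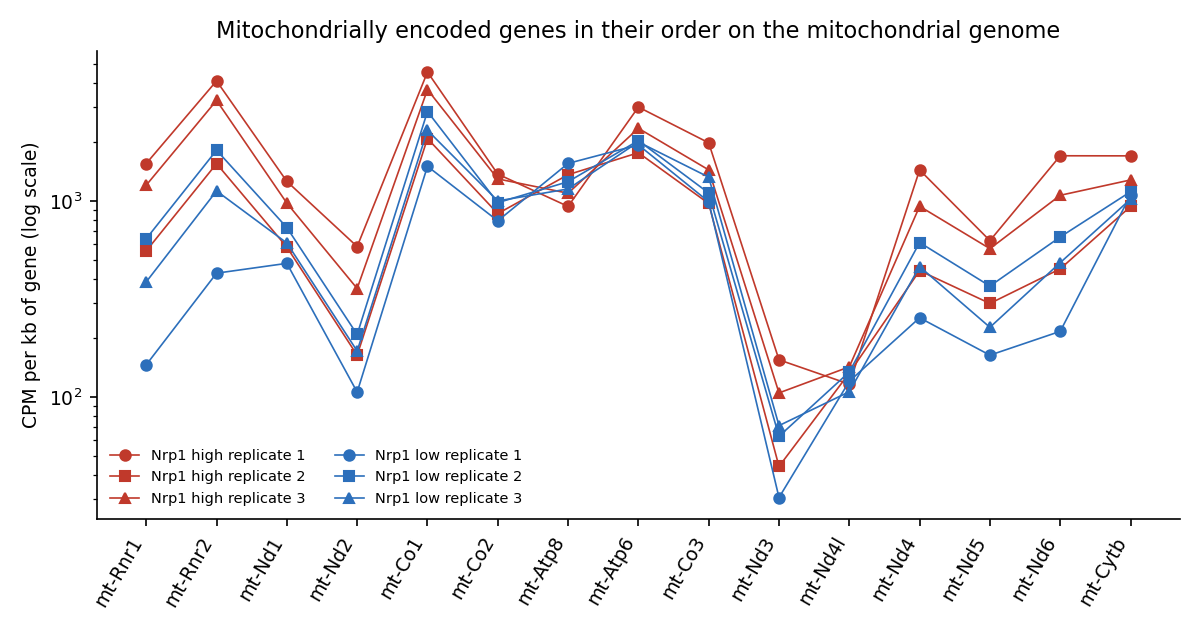
CPM per kb of gene (log scale, y axis) of the 13 mRNAs and 2 rRNAs in their order on the mitochondrial genome (x axis), a line per library, Nrp1 high in red and Nrp1 low in blue. At mt-Rnr1 the libraries run from 146 to 1550 CPM per kb, and at mt-Nd4l from 106 to 142 CPM per kb.

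On the nuclear side, all 36 complex I subunits lay below 0, with a median of -0.35 and a range of -0.56 to -0.04. Ndufb7, an accessory subunit, had 258, 311 and 242 CPM in Nrp1 high, against 404, 282 and 484 CPM in Nrp1 low, a log2 difference of -0.53 ± 0.24 (adjusted p = 0.445, edgeR). Ndufs1, the largest iron-sulphur subunit of the electron input arm, had 71.9, 104 and 78.4 CPM in Nrp1 high, against 139, 106 and 108 CPM in Nrp1 low. Only Ndufs1 among these subunits had groups that did not overlap, and its log2 difference of -0.47 had an adjusted p of 0.445 (edgeR). Over all 90 tested nuclear members 4 had non-overlapping groups, all lower, beside 10.8% of all genes lower, and 0 were higher, beside 9.51%; the others were Cox6b2 and the complex I assembly factors Ndufaf1 and Ndufaf4.

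Some nuclear genes of complexes II and III varied widely within a group. Uqcrc1, a subunit of complex III without a redox centre, had 424, 1039 and 536 CPM in Nrp1 high, against 1155, 675 and 751 CPM in Nrp1 low. Sdhd, a membrane anchor of succinate dehydrogenase, had 107, 321 and 202 CPM in Nrp1 high and 383, 241 and 223 CPM in Nrp1 low. Replicate 2 was the highest Nrp1 high library and replicate 1 the highest Nrp1 low library for both genes. The differences of -0.37 ± 0.37 and -0.43 ± 0.39 were about as large as their SE. Within complex III, Uqcrb and Uqcr10 differed by -0.44 and -0.49.

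In complex IV, the isoform Cox6b2, best known from testis, had 23.9, 21.6 and 21.1 CPM in Nrp1 high, against 31.7, 29.1 and 54.6 CPM in Nrp1 low. Its log2 difference of -0.79 ± 0.29 was the one nuclear value with an unadjusted p under 0.05, and its adjusted p was 0.41 (edgeR). The ubiquitous isoform Cox6b1 had 329, 341 and 304 CPM in Nrp1 high and 408, 287 and 504 CPM in Nrp1 low. Cox4i1, the regulatory subunit 4 found in most tissues, had 703, 797 and 613 CPM in Nrp1 high and 834, 589 and 1188 CPM in Nrp1 low. Its hypoxia-associated counterpart Cox4i2 was at 0 in 2 Nrp1 high and 2 Nrp1 low libraries and was not tested.

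The complex V rotor ring is built from identical c subunits that Atp5g1, Atp5g2 and Atp5g3 encode as separate precursors. Atp5g2 had 141, 84.9 and 128 CPM in Nrp1 high, against 80.6, 84.7 and 90.5 CPM in Nrp1 low, a log2 difference of 0.47 ± 0.23 (adjusted p = 0.446, edgeR). It had the highest log2 difference of the nuclear members. Atp5g1 had 200.4, 245 and 187 CPM in Nrp1 high and 280.2, 201 and 337 CPM in Nrp1 low, a difference of -0.37, and Atp5g3 differed by -0.16. The count of Atp5g2 over that of Atp5g1 was 0.705, 0.347 and 0.687 in Nrp1 high, against 0.288, 0.421 and 0.269 in Nrp1 low, and replicate 2 again made the groups overlap. Atp5b, the catalytic beta subunit, differed by -0.17.

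**Figure D4:**
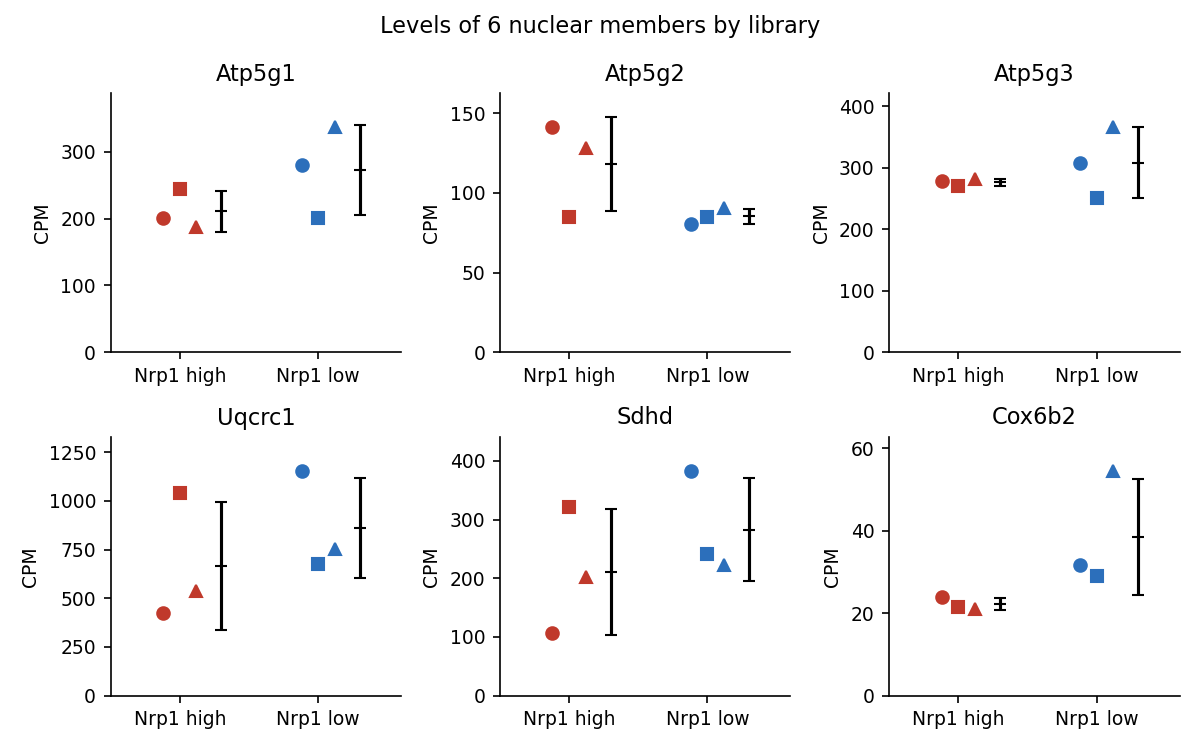
CPM (y axis, from 0) of 6 nuclear members in each library, Nrp1 high in red left of Nrp1 low in blue; circles, squares and triangles are replicates 1, 2 and 3, and bars the mean and SD. Groups are apart for Cox6b2 and overlap for the other 5 genes.

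Genes that feed electrons into the chain or make its mobile carriers leaned the same way as the nuclear subunits. Of 22 tested, 21 lay below 0 with a median of -0.36, and 1 was called lower (beside 0.676% of all genes), Prodh, which oxidises proline and passes electrons to ubiquinone. Prodh had 6.43, 7.95 and 8.30 CPM in Nrp1 high, against 29.5, 22.6 and 28.4 CPM in Nrp1 low. Its log2 difference was -1.83 ± 0.26 (adjusted p = 0.0213, edgeR), and the groups did not overlap. The call was lost without any 1 of Nrp1 high replicates 1, 2 and 3 and Nrp1 low replicate 3, with adjusted p-values of 0.156, 0.09991, 0.168 and 0.16 (edgeR). Sqor, the sulphide to quinone oxidoreductase, had 66.4, 80.2 and 66.6 CPM in Nrp1 high and 175, 144 and 132 CPM in Nrp1 low. Its difference of -1.08 had an adjusted p of 0.0623 with edgeR and 0.000379 with DESeq2. Coq4, needed for ubiquinone synthesis, differed by -1.25, with an adjusted p of 0.112 with edgeR and 0.00128 with DESeq2. Among 14 alternative fits, DESeq2 alone called Sqor or Coq4. Neither was called by limma-voom or with any single library left out.

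**Figure D5:**
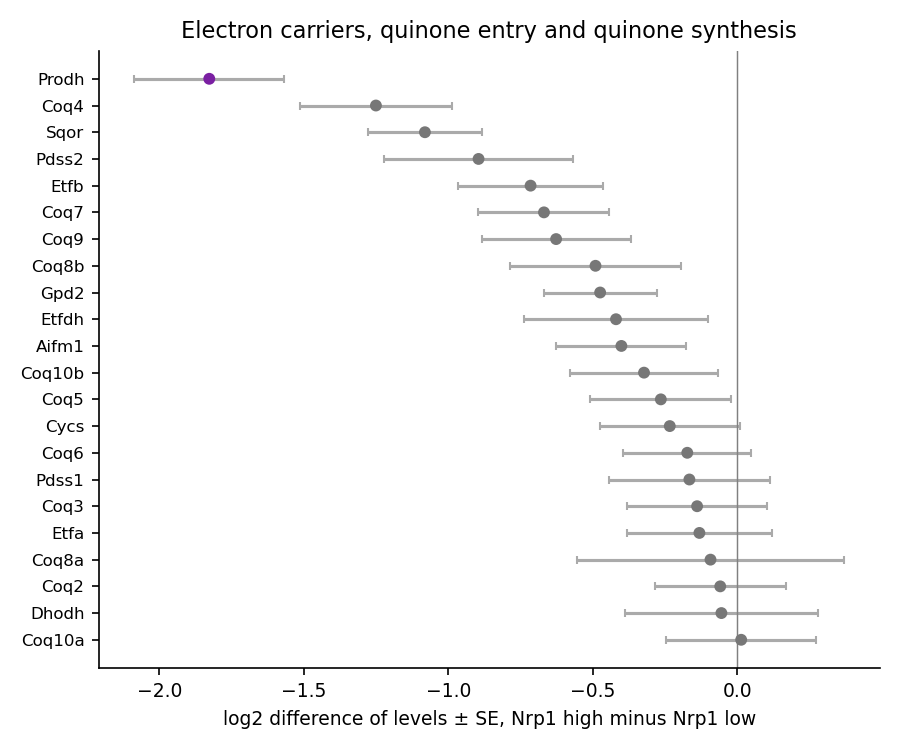
Log2 difference, Nrp1 high minus Nrp1 low, with its SE (x axis) for 22 genes of electron carriers, quinone entry and quinone synthesis (y axis). Prodh, in purple, is the called gene at -1.83; 21 of the 22 points lie left of 0.

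Other mitochondrial gene lists held no called gene. Assembly factors outside the symbol rule lay below 0 in 36 of 42 cases, with a median of -0.27, Tmem126b, a complex I assembly factor, having the lowest p at -0.91. Tricarboxylic acid cycle genes were below 0 in 14 of 18 cases, with a median of -0.23. For mitochondrial mass, protein import and protein upkeep, 15 of 26 genes were below 0, with a median of -0.04. Genes of mitochondrial transcription and replication were split, 11 of 19 below 0 with a median of -0.10. Among them the mitochondrial RNA polymerase Polrmt differed by -0.06, a sign that turned with library totals, and the transcription factor Tfam by 0.09. RNA processing genes were below 0 in 22 of 33 cases, where Lrpprc, which stabilises mitochondrial mRNAs, differed by 0.26 and its partner Slirp by 0.00. These 4 genes were chosen after their values were seen. Among the transcription and replication genes Primpol had the lowest p, with a log2 difference of 0.80. Among the RNA processing genes it was Fastkd2, at -0.82. Nuclear regulators of the chain were above 0 in 12 of 18 cases, with a median of 0.49. Of these, Hif1a, the hypoxia-responsive factor, differed by 0.65 (adjusted p = 0.43, edgeR).

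Promoters of nuclear members were searched for motifs of factors known to control respiratory genes, in RefSeq windows (GRCm38.p6) of 250 bases before to 50 after each start. A window was found for 74 of 93 nuclear members, 79 windows in all. The palindromic NRF1 motif, whose letters are the capitals in the stretches printed here, was present in 8.86% of member windows, against 0.971% of all windows and 1.92% of windows of tested genes. CCGGAAG, an ETS motif of the GABPA type, was present in 24.1% of member windows, against 8.86% of all windows and 16.8% of windows of tested genes. AAGATGGC, of the YY1 type, was present in 13.9% of member windows, against 2.75% of all windows and 4.24% of windows of tested genes. Both strands were searched, and a match is a description of letters only. The stretches below show the palindrome in capitals in the c-ring gene Atp5g2 (chr15:102671071-102671100, minus strand), in Atp5k of complex V (chr5:108434431-108434460, minus strand) and in Cox6a1 of complex IV (chr5:115349102-115349131, minus strand), written 5′ to 3′ along the gene.
Atp5g2: tggctccggccGCGCATGCGCagagccttc
Atp5k: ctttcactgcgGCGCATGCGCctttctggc
Cox6a1: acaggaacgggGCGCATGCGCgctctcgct

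Accessibility at the promoters of nuclear members was read from the authors' deposited table, whose fold is read as Nrp1 high over Nrp1 low from the comparison's name in the labels alone. Within 3000 bases of a start, 2 of 81 regions at nuclear members had an FDR under 0.05 in the authors' deposited table, beside 5.84% of all such regions. Within 1000 bases the count was 1 of 76 (beside 5.24%), and at an FDR under 0.01 it was 0 of 81 (beside 1.66%), again in the authors' deposited table. They were a region at the Atp5g1 start, with a log2 fold of 0.28 and an FDR of 0.0317 in the authors' deposited table, and a region 1533 bases from the Cox4i2 start, with -0.61 and 0.0492. The median log2 fold of the 81 regions was 0.04, against -0.06 for all, in the authors' deposited table. The region that contains the printed Atp5g2 stretch had a log2 fold of -0.18 (FDR 0.339, the authors' deposited table), and the level of its transcript differed by 0.47.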

How the data were processed

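Per the submitters' processing notes, reads were aligned to GRCm38, with HISAT2 and StringTie among the tools. The authors deposited estimated counts per gene, whole numbers that were not changed by rounding. For ATAC-seq the authors deposited their own comparison per region, as log2 fold values with p-values and FDR, so its depth is unknown here.

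Genes were filtered with filterByExpr, normalised with TMM factors, and differences were tested in edgeR 4.0.16 (quasi-likelihood, group as the term) in R 4.3.3, with Benjamini-Hochberg adjustment over all 15541 genes tested. DESeq2 1.42.0 and limma 3.58.1 (voom) were alternatives. CPM values use library sizes multiplied by the TMM factors. The fitting code was also run on simulated counts. Their planted changes were larger than the difference of any member, and no effect was shared within a library. That run therefore says nothing on the precision of the values reported here. The precision of the fitted differences rests on how the libraries within each group scatter, and that scatter may be technical.

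Genes were named by a rule: all mitochondrial mRNAs and rRNAs, the lowest p and highest level per complex, isoforms, and the lowest p per list. Some genes that met the rule were refitted but are not described in the text. Atp5g1, Atp5g3, Ndufaf1, Ndufaf4, Polrmt, Tfam, Lrpprc and Slirp were added after their values were seen. The members and lists were chosen with earlier results of these data known. The 11 rows with -ps in the symbol were left out by that mark alone. They include Ndufb1-ps, which had 3041 to 5392 counts a library, so its exclusion rests on its name. Marker sums without Lyz2 and without CT010467.1 were added after seeing the data.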

Additional observations from a re-analysis of the deposited data

How the results depend on the processing

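No respiratory chain gene was called under any alternative. The direction of the mitochondrially encoded over nuclear ratio held in each alternative run, and over all complexes it ranged from 0.52 to 1.14 on the log2 scale. Of 76 named genes refitted under 14 alternatives, 66 kept their sign in every one. Genes called over the whole table were 403 with DESeq2 and 0 with the replicate block. Without 1 library each they were 0 to 125, with 28 without Nrp1 high replicate 1, 50 without replicate 2, 0 without replicate 3, and 29 without Nrp1 low replicate 3; the cause was not tested. Same-numbered libraries had correlations of deviations of -0.34, -0.39 and 0.03, so the numbers were not taken to pair the samples. Among differently numbered libraries the highest was 0.489, between Nrp1 high replicate 2 and Nrp1 low replicate 1. A pairing other than by number was not tested, and whether libraries shared an animal or batch is unknown. The replicate block joined same-numbered libraries, and with it Prodh had an adjusted p of 0.241 (edgeR). ATAC regions called at promoters of nuclear members were 1 within 1000 bases of a start. Within 3000 bases they were 0 at an FDR under 0.01, and regions farther away were not counted.

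With library totals, and with totals without mitochondrial genes, signs turned to 0.0297 and 0.0452 for Atp5b, 0.0596 and 0.0757 for Cox6a1, 0.17 and 0.19 for Cox7a2l, 0.15 and 0.16 for Cox7b, 0.11 and 0.12 for Cox8a, 0.0459 and 0.0622 for Atp5g3, 0.12 and 0.14 for Polrmt and 0.20 and 0.22 for Slirp. Slirp, at -0.00179 in the reported fit, also turned to 0.0112 with RLE factors, 0.0112 with DESeq2, 0.00749 with no filter, 0.0179 with limma-voom and 0.0188 with the replicate block. Leaving out 1 library each gave -0.33 to 0.08995 for Cox6a1, -0.31 to 1.19 for Cox7a1, -0.12 to 0.0563 for Cox7a2l, -0.26 to 0.19 for Cox7b, -0.26 to 0.11 for Cox8a, -0.12 to 0.00471 for Polrmt, -0.0141 to 0.63 for Lrpprc and -0.16 to 0.15 for Slirp. Counts per kb were not run for the ratio, since nuclear transcript lengths were not used here. Depth limits low genes such as Cox7a1, whose mean CPM was 1.64 for Nrp1 high and 1.53 for Nrp1 low.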

Other observations

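Mitochondrial tRNA rows were low apart from mt-Ts1, which had 360.0, 123 and 274 CPM in Nrp1 high, against 61.3, 171 and 125 CPM in Nrp1 low. Of the 16 tested, 14 lay above 0 and none was called, the lowest adjusted p being 0.433 (edgeR). In 6 the groups did not overlap, all higher in Nrp1 high, beside 9.51% of all genes in that direction. These 6 rows held only 12 to 98 counts a library. Mitochondrial genes share long precursors, so the 6 are not separate observations to set against a share per gene. One of the 6 was mt-Ti, the isoleucine tRNA, with 2.38, 1.65 and 2.53 CPM in Nrp1 high, against 0.604, 1.09 and 0.874 CPM in Nrp1 low. Reads of neighbouring mRNAs that fall in these short rows cannot be told apart from tRNA reads.

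The count of mt-Rnr2 over that of mt-Cytb, a pair chosen after the values were seen, was 3.34, 2.29 and 3.52 in Nrp1 high, against 0.553, 2.25 and 1.52 in Nrp1 low. The groups did not overlap, by a gap between the second replicates of 2.29 and 2.25. Other pairs of members were also computed, and in most of them the groups overlapped. The count of mt-Rnr2 over that of mt-Rnr1 did not overlap either, but was lower in Nrp1 high. It was 4.37, 4.62 and 4.48 in Nrp1 high, against 4.86, 4.69 and 4.82 in Nrp1 low. The authors' deposited table held 2 regions on the mitochondrial genome, with log2 folds of -0.23 and -0.20 (FDR 0.2095 and 0.289).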
